A study of Mus musculus with 21 samples.

Results

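Dimethylation of histone H3 at lysine 79 (H3K79me2) was mapped by chromatin immunoprecipitation sequencing (ChIP-seq) in mouse embryonic stem (ES) cells, and 427 of the 13437 peaks called in DMSO-treated cells shared no base with any peak called in inhibitor-treated cells. These DMSO-only peaks, 3.18% of the DMSO list, are described here beside the other 13010 DMSO peaks. The ES cells were of strain V6.5 and genotype Cdk1as/as in both treatments. In this genotype the only Cdk1 is an analog-sensitive form that the compound 3-MB-PP1 blocks. They were kept for 4 days in 1 µM 3-MB-PP1 or in the solvent DMSO, in both cases without feeder cells, and each treatment had 1 ChIP library and 1 input library. A Thio-ChIP library of the same genotype, with its input, recorded DNA bound by proteins that Cdk1 had labelled with thiophosphate, after retinoic acid and 3-MB-PP1 had gathered cells at G2/M and the inhibitor had been washed off. The number of clones behind the Cdk1as/as cells is not stated in the labels.

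H3K79me2 is placed by Dot1l, the histone methyltransferase of this site. It is known as a mark of transcribed genes, strongest downstream of the gene start and often spread over many nucleosomes of the gene body. Cdk1 is the main mitotic cyclin-dependent kinase, and ES cells, which divide quickly, express it highly. The comparison of treatments asked where blocking Cdk1 changed the mark. The DMSO-only peaks are the places where the mark was called with Cdk1 active and not called with Cdk1 blocked.

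The 2 lists differed far more in the other direction. The inhibitor list held 22352 peaks over 132 Mb and the DMSO list 13437 peaks over 59.87 Mb, and 13970 inhibitor peaks (62.5%) shared no base with a DMSO peak. The DMSO-only peaks covered 0.3698 Mb, or 0.618% of the bases under DMSO peaks. Of the other DMSO peaks, 79.8% lay wholly under inhibitor peaks and 2.39% had less than 50% of their width covered. With 1 library per treatment no difference between the treatments has a replicate check. A DMSO-only peak is a place with no call in the inhibitor list, which does not show that signal was missing there, and the depth of the libraries is unknown.

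DMSO-only peaks were narrow. Their width ran from 0.29 kb to 4.25 kb with a median of 0.691 kb, against a median of 2.16 kb and a highest width of 146 kb in the other DMSO peaks. Of the 427, 300 (70.3%) were under 1 kb wide, against 3055 (23.5%) of the other DMSO peaks. None of them exceeded 5 kb, the size that 3263 of the other DMSO peaks exceeded, so the broad domains typical of this mark were absent from the group. At the lower end, 23 of the 427 (5.39%) and 134 of the others (1.03%) had the narrowest width in the list, 290 bp.

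Their scores were low as well. The score is the authors' value for each peak, of a kind that neither the labels nor the lists name. The lower quartile, median and upper quartile were 14, 17 and 22 in DMSO-only peaks, against 18, 25 and 46 in the other DMSO peaks. A score of 30 or more was given to 30 of the 427 (7.03%) and to 5226 of the others (40.2%), and both groups began at 10. Width and score come from the list that the choice of peaks used, so both are a description and were not tested.

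**Figure D1:**
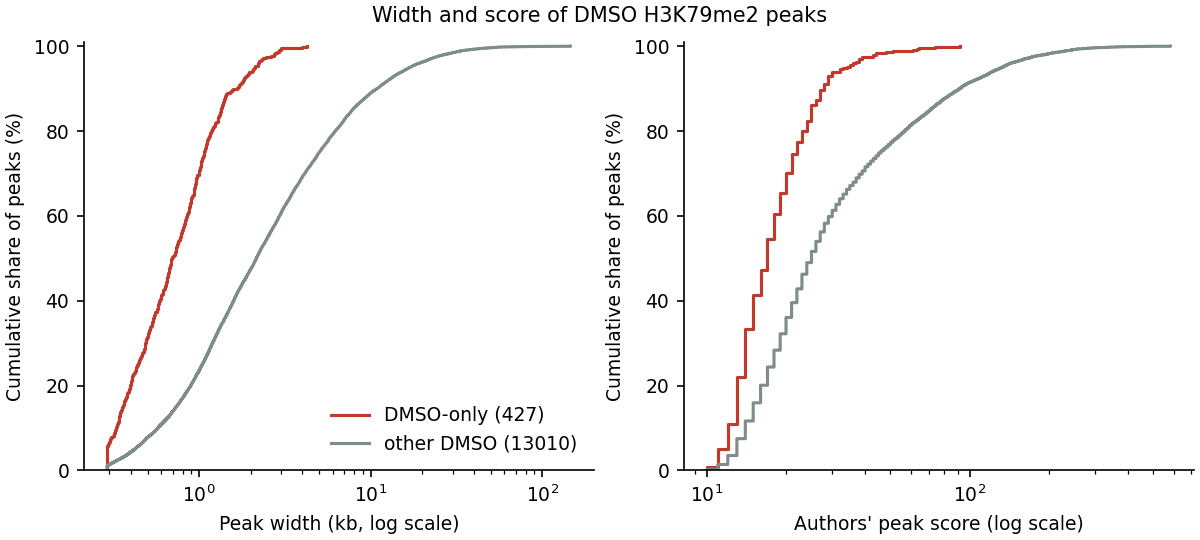
Cumulative share (%) of DMSO-only peaks (427, red) and other DMSO peaks (13010, grey) by width in kb (left) and by the authors' score (right), both on log axes. The DMSO-only curve lies to the left in both panels, with medians of 0.691 kb and 17, against 2.16 kb and 25 in the other DMSO peaks.

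The share of DMSO peaks that were DMSO-only went down with width and with score. By width it was 11.7% of the 1145 peaks under 0.5 kb, 7.51% of those from 0.5 to 1 kb, 3.14% of those from 1 to 2 kb, 0.722% of those from 2 to 5 kb and 0% of the 3264 peaks of 5 kb and over. A wider peak has more bases that an inhibitor peak can share, so a fall with width is partly built into the rule. By score it was 8.57% under 15, 4.87% from 15 to 19, 3.18% from 20 to 29, 1.07% from 30 to 49 and 0.198% at 50 and over. Among peaks under 0.5 kb the share lay between 9.32% and 13.1% in every score class below 50, with 41 of 312 under 15 and 11 of 99 between 30 and 49. Among peaks from 1 to 2 kb wide it was 5.54% under 15, 3.05% from 15 to 19, 3.57% from 20 to 29, 1.11% from 30 to 49 and 0.656% at 50 and over.

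**Figure D2:**
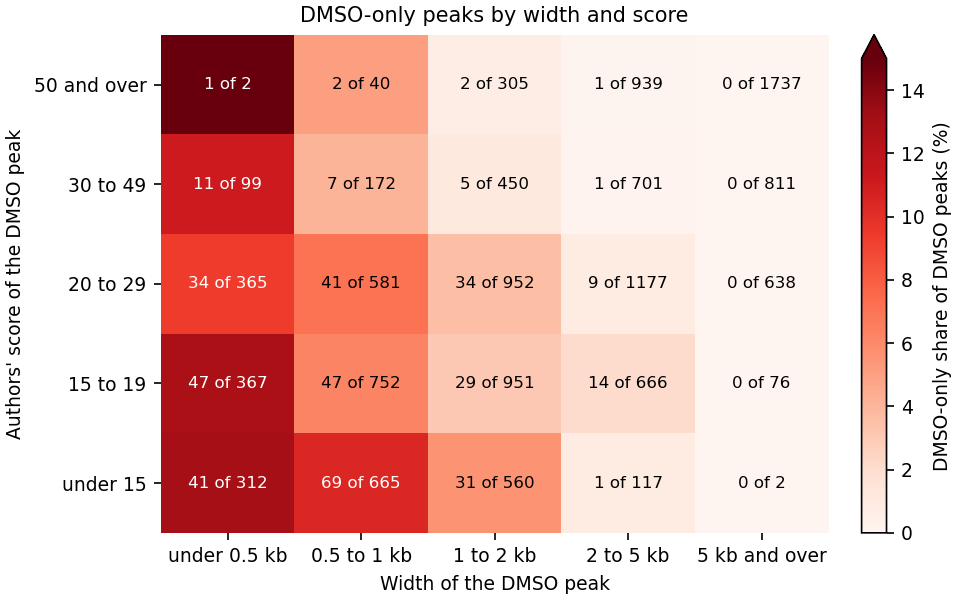
DMSO peaks by width class (horizontal) and by the authors' score class (vertical), with the DMSO-only share as colour (%, values above 15 shown as 15) and the number of DMSO-only peaks of all DMSO peaks in each cell. DMSO-only peaks gathered in the 2 columns under 1 kb, and the column of 5 kb and over held none.

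Most DMSO-only peaks had a peak of the inhibitor list within 5 kb. The gap to the nearest inhibitor peak had a median of 1.59 kb, with quartiles of 0.523 and 4.52 kb. It was at most 1 kb for 160 peaks (37.5%), at most 5 kb for 328 (76.8%) and at most 10 kb for 357 (83.6%). An inhibitor peak stood within 5 kb on both sides of 103 peaks (24.1%) and on 1 side only of 225 (52.7%). For comparison, the 13970 inhibitor-only peaks were a median of 20.3 kb from the nearest DMSO peak, and 2290 of them (16.4%) had one within 5 kb. Within the DMSO list, another DMSO peak stood within 5 kb of 208 DMSO-only peaks (48.7%) and of 58.3% of all DMSO peaks. Among DMSO peaks with a score above the median of 24, 49 of 75 DMSO-only peaks (65.3%) had an inhibitor peak within 5 kb. When only inhibitor peaks with a score above their median of 19 were used, 1049 DMSO peaks were DMSO-only and 467 of them (44.5%) had one, so with the lower-scoring inhibitor peaks left out they were no longer a majority. The inhibitor list held more peaks and covered more bases than the DMSO list, and the part of this in the shorter gaps was not tested.

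Spacing within each list is given beside these gaps as a description. No 2 peaks of the DMSO list were closer than 1161 bp, and no 2 of the inhibitor list closer than 1165 bp. Of the DMSO-only peaks, 170 (39.8%) were nearer than 1161 bp to an inhibitor peak, a spacing found within neither list. The lists were called separately, so a smallest spacing within a list need not hold between 2 lists. No conclusion is drawn from this contrast. At the edge of the rule, the closest DMSO-only peaks were chr1:179186404-179186919 and chr8:81909292-81910246 (mm9), 7 bp and 9 bp from an inhibitor peak. Just outside it, chr11:69716702-69717046 and chr6:137690033-137690343 each shared 5 bp with one. In all, 28 DMSO-only peaks lay within 100 bp of an inhibitor peak and 42 other DMSO peaks shared 100 bp or less.

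**Figure D3:**
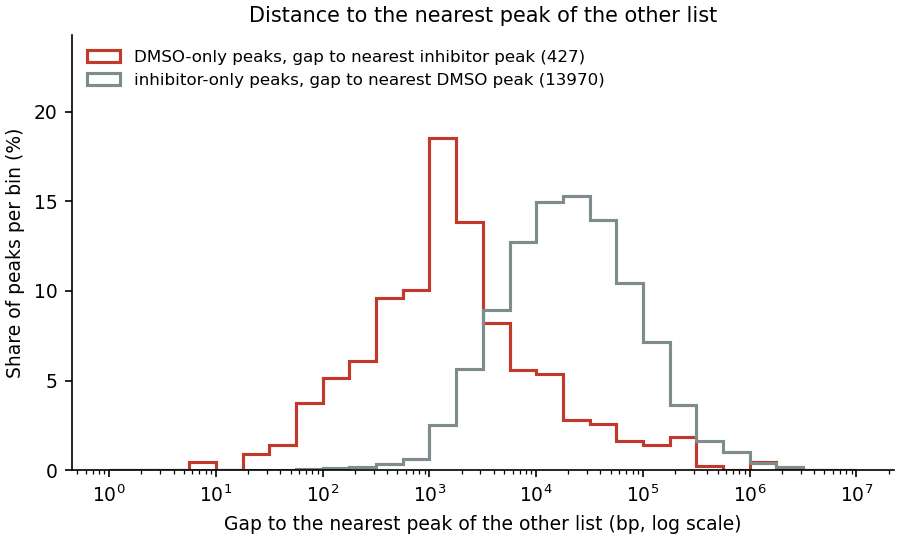
Gap in bp (log axis) from each DMSO-only peak to the nearest inhibitor peak (427, red) and from each inhibitor-only peak to the nearest DMSO peak (13970, grey), as the share of peaks per bin (%). The red outline is highest just above 1 kb and the grey one near 20 kb, with medians of 1.59 and 20.3 kb.

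The nearest inhibitor peaks were of 2 kinds. For 228 DMSO-only peaks (53.4%) the nearest inhibitor peak was shared with another DMSO peak, while 37.5% of all inhibitor peaks were shared. The part that the width of shared peaks had in this was not tested. In these 228 cases the nearest inhibitor peak had a median width of 7.1 kb and a median score of 52. Not all were wide, and one spanned 0.302 kb. For the other 199 the nearest inhibitor peak was itself inhibitor-only, with a median width of 1.21 kb and a median score of 16. The DMSO-only peaks themselves had a median width of 0.801 kb where the nearest inhibitor peak was shared and 0.63 kb where it was inhibitor-only. Their median scores were 17 and 16. The nearest inhibitor peak was wider than the DMSO-only peak in 359 cases (84.1%). The median width was 0.691 kb in DMSO-only peaks and 2.32 kb in all inhibitor peaks. The share of all inhibitor peaks wider than a DMSO-only peak was not computed, so this count is no trait of the neighbouring peaks. For 26 of the 427 (6.09%) the nearest DMSO peak was also DMSO-only, while DMSO-only peaks were 3.18% of the list.

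Near and distant DMSO-only peaks had similar median widths. These were 0.674, 0.713, 0.647, 0.73 and 0.796 kb for gaps up to 1 kb, from 1 to 5, from 5 to 10, from 10 to 100 and over 100 kb. Median scores in the same order were 16.5, 17, 15, 17 and 22. The highest median score was that of the last class, which held 17 peaks. A score of 30 or more was given to 8, 15, 0, 5 and 2 peaks in these classes, of 160, 168, 29, 53 and 17.

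The 3 highest-scoring DMSO-only peaks were outscored by 9.56%, 13.5% and 16.5% of the DMSO list, whose scores reached 583. Of the 10 highest, those that scored 44 or 43 lay below the list's upper quartile of 45. The first, chr2:25078925-25079821 (mm9), was 0.897 kb wide with a score of 92, and 1284 DMSO peaks (9.56%) scored higher. It lay 2.25 kb from an inhibitor-only peak of 1.69 kb with a score of 27. The second, chr11:62416543-62417967, had a score of 74 and a width of 1.43 kb and lay 19.1 kb from the nearest inhibitor peak, which was 0.291 kb wide, the narrowest width in that list, and scored 22. In both cases the nearest inhibitor peak was narrower than the median of its list, 2.32 kb, and scored above the list's median of 19.

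For other peaks of this group the nearest inhibitor peak was shared with a DMSO peak, at various distances and widths. The third by score, chr3:75453748-75454231, had a score of 64 and a width of 0.484 kb and lay 2.26 kb from a shared inhibitor peak of 6.15 kb. The peak chr3:107082225-107082960, with a score of 43, lay 26.2 kb from a shared inhibitor peak of 26.8 kb with a score of 232. The peak chr7:52714036-52716247, with a score of 61, was 2.21 kb wide and lay 3.02 kb from a shared inhibitor peak of 2.61 kb. The remaining peaks among the 10 highest were chr17:28465740-28467117 (score 63), chrX:71516451-71517080 (51), chr3:137527790-137529143 (48), chr4:86501387-86503162 (44) and chr7:56135084-56135934 (44). The gaps of these 5 to the nearest inhibitor peak ran from 0.786 kb for the one on chromosome 4 to 81 kb for the one on chromosome 7. Over all 10 the gaps spanned the same range, so a high score was found both beside an inhibitor peak and far from one.

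The 5 widest DMSO-only peaks had scores from 19 to 29, against medians of 17 in all DMSO-only peaks and 25 in the other DMSO peaks. The widest, chr19:60841731-60845983, spanned 4.25 kb with a score of 19 and ended 0.031 kb from an inhibitor-only peak of 0.875 kb. The next, chr19:4759727-4763722, spanned 4 kb with a score of 25 and lay 1.26 kb from an inhibitor-only peak of 1.87 kb. The other 3 of the 5 widest, chr7:97105652-97108652, chr8:87437677-87440656 and chr4:55398105-55401033, spanned 3, 2.98 and 2.93 kb at scores of 29, 21 and 19. The last of these lay 2.9 kb from a shared inhibitor domain of 35 kb, while the one on chromosome 8 lay 18.9 kb from an inhibitor-only peak of 0.431 kb.

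Isolated DMSO-only peaks were few. The 17 with no inhibitor peak within 100 kb were picked out by their distance, after the values were seen. The farthest were chr12:67383191-67384126 and chr15:56523048-56523522, at 1108 and 1090 kb from the nearest inhibitor peak, with scores of 18 and 24. Both were about as far from the nearest DMSO peak, at 1110 and 1135 kb, so the 2 H3K79me2 lists were otherwise empty around them. The nearest Thio-ChIP peak was 938 kb from the one on chromosome 12 and 2.14 kb from the one on chromosome 15. A pair on chromosome 11, chr11:121782480-121784281 (score 32) and chr11:121785996-121786285 (score 22), stood 1.71 kb apart and 249 and 252 kb from the nearest inhibitor peak. The widths of these 4 peaks were 0.936, 0.475, 1.8 and 0.29 kb.

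Thio-ChIP peaks, a measurement the choice of peaks did not use, overlapped 41 of the 427 DMSO-only peaks (9.6%, exact (Clopper-Pearson) 95% interval 6.98% to 12.8%) and 2842 of the other 13010 (21.8%, 21.1% to 22.6%), against 21.5% of all DMSO peaks. The pooled shares therefore differed by more than their counting error. All intervals cover counting error only, and peaks of 1 library are not replicates of a condition. A wide peak has more room for an overlap, so the shares were compared within width classes.

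Within classes of narrow peaks the 2 groups were close. Under 0.5 kb, 9 of 134 DMSO-only peaks (6.72%, 3.12% to 12.4%) and 59 of 1011 other DMSO peaks (5.84%, 4.47% to 7.46%) overlapped a Thio-ChIP peak. From 0.5 to 1 kb the shares were 10.2% (6.08% to 15.9%) and 8.02% (6.88% to 9.29%), and from 1 to 2 kb they were 12.9% (7.04% to 21%) and 12.2% (11.1% to 13.4%). In each of these 3 classes the intervals overlapped. From 2 to 5 kb the values were 2 of 26 DMSO-only peaks (7.69%, 0.946% to 25.1%) and 775 of 3574 others (21.7%, 20.3% to 23.1%), which also overlapped. In all classes under 2 kb together, 39 of 401 DMSO-only peaks (9.73%, 7.01% to 13.1%) and 604 of 6172 other DMSO peaks (9.79%, 9.06% to 10.6%) had a Thio-ChIP peak. The lower pooled share was thus not seen among peaks under 2 kb wide, a comparison added after the widths were seen. By score class, the DMSO-only and other shares were 2.82% and 3.5% under 15, 8.76% and 5.91% from 15 to 19, and 16.1% and 12.2% from 20 to 29. They were 20.8% and 31.1% from 30 to 49, with 24 DMSO-only peaks, and 16.7% and 49.9% at 50 and over, with 6. The intervals overlapped in every score class. Width and score were not matched together.

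**Figure D4:**
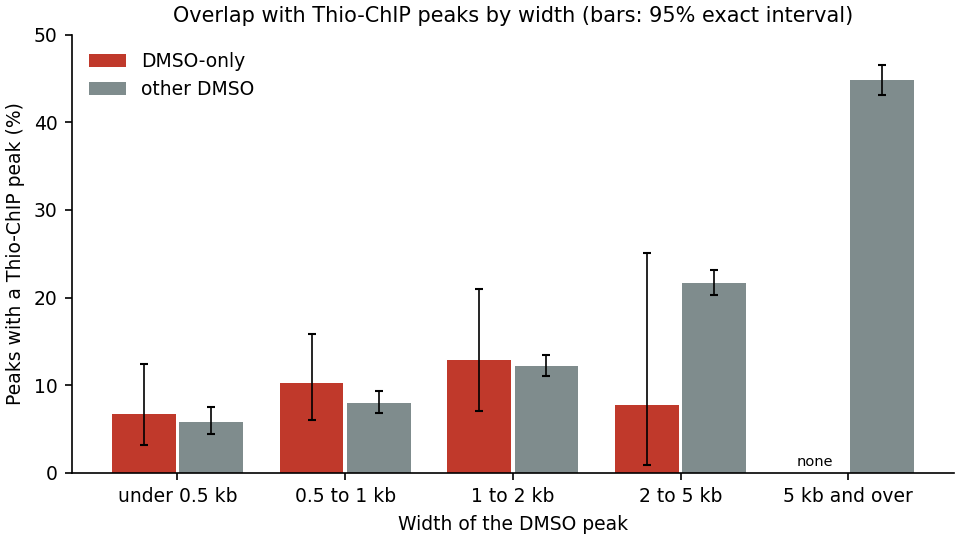
Share of DMSO peaks (%) that overlap a Thio-ChIP peak by at least 1 bp, by width class, for DMSO-only peaks (red) and other DMSO peaks (grey), with exact 95% intervals for counting error. The intervals of the 2 groups overlap in the 4 classes that hold DMSO-only peaks, and other DMSO peaks of 5 kb and over reach 44.8%.

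Both groups of DMSO peaks had Thio-ChIP peaks more often than the inhibitor-only peaks. Of these, 386 of 13970 (2.76%, 2.5% to 3.05%) overlapped one, and 191 of 9162 (2.08%, 1.8% to 2.4%) did so among those under 2 kb, where DMSO-only peaks had 9.73%. The 2 sets of peaks called in a single treatment thus differed in their Thio-ChIP share by more than counting error. Other DMSO peaks under 2 kb, which share bases with inhibitor peaks, had 9.79%, close to the DMSO-only share. The median score was 15 in inhibitor-only and 17 in DMSO-only peaks. Inhibitor-only shares were not compared within score classes. The lists were called on different libraries, and the part that calling played in this was not tested.

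The DMSO-only peaks with a Thio-ChIP peak had a longer median gap to inhibitor peaks. Their gap had a median of 3.35 kb (41 peaks), against 1.47 kb in the 386 without one. Beyond 10 kb from any inhibitor peak lay 16 of the 41 (39%) and 54 of the 386 (14%). Read the other way, a Thio-ChIP peak was found at 6 of 160 peaks with a gap of up to 1 kb (3.75%, 1.39% to 7.98%) and at 13 of 53 with a gap of 10 to 100 kb (24.5%, 13.8% to 38.3%). It was found at 17 of 168 with a gap of 1 to 5 kb (10.1%), 2 of 29 at 5 to 10 kb (6.9%) and 3 of 17 over 100 kb (17.6%), so the shares did not follow distance step by step. The intervals of the first and the fourth class did not overlap. Those at 1 to 5 kb (6.01% to 15.7%), 5 to 10 kb (0.846% to 22.8%) and over 100 kb (3.8% to 43.4%) overlapped the interval of the first. The classes were set after the values were seen, and a dependence of the share on the gap was not tested. The median score was 22 with and 17 without a Thio-ChIP peak, and the median widths were 0.785 and 0.686 kb.

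At these 41 places the Thio-ChIP peaks had a median score of 197 and a median width of 1.9 kb, against a median score of 176 in the Thio-ChIP peaks at other DMSO peaks. In the whole Thio-ChIP list of 7924 peaks the medians were 154 and 1.61 kb. Their scores ran from 94 to 709, on a scale separate from that of the H3K79me2 lists. Of the 41 Thio-ChIP peaks, 7 also reached an inhibitor peak and 4 another DMSO peak. In 8 cases the DMSO-only peak lay wholly inside the Thio-ChIP peak, and its centre did so for 23 of the 427 (5.39%), against 238 of the other 13010 (1.83%). The 2 groups differ in width, with medians of 0.691 and 2.16 kb, and the centre of a wide peak lies far from its edges. The centre shares were not compared within width classes.

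The highest-scoring DMSO-only peaks with a Thio-ChIP peak show the range. The peak chr17:28465740-28467117, with a score of 63, shared 772 bp with a Thio-ChIP peak of 1.72 kb that scored 187. The peak chr5:123587262-123587706, with a score of 39, shared 227 bp with one that scored 504. The peak chr7:56135084-56135934 shared 8 bp with one of 1.96 kb that scored 363. The last of these overlaps was the smallest of the 10 highest-scoring cases.

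Some of these were far from any inhibitor peak. The peak chr10:17443933-17445275, with a score of 29 and a width of 1.34 kb, lay 189 kb from the nearest inhibitor peak and shared 603 bp with a Thio-ChIP peak that scored 223. The others of the 10 were chr3:137527790-137529143, chr11:120099279-120099946, chr17:33955459-33955776, chr15:100057259-100057915, chr9:40609431-40610607 and chr14:106298693-106299045. The gaps of these 6 to an inhibitor peak ran from 1.13 kb for the one on chromosome 9 to 3.35 kb for the one on chromosome 17.

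DMSO-only peaks were spread over all 20 chromosomes in the list. Their number ran from 9 on chromosome 16 to 36 on chromosome 2. As a share of the DMSO peaks of a chromosome they ran from 2.03% (exact 95% interval 0.931% to 3.81%) on chromosome 16 to 4.7% (2.59% to 7.76%) on the X chromosome. The interval of each of the 20 chromosomes held the overall share of 3.18%, so no chromosome stood apart beyond counting error.

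**Figure D5:**
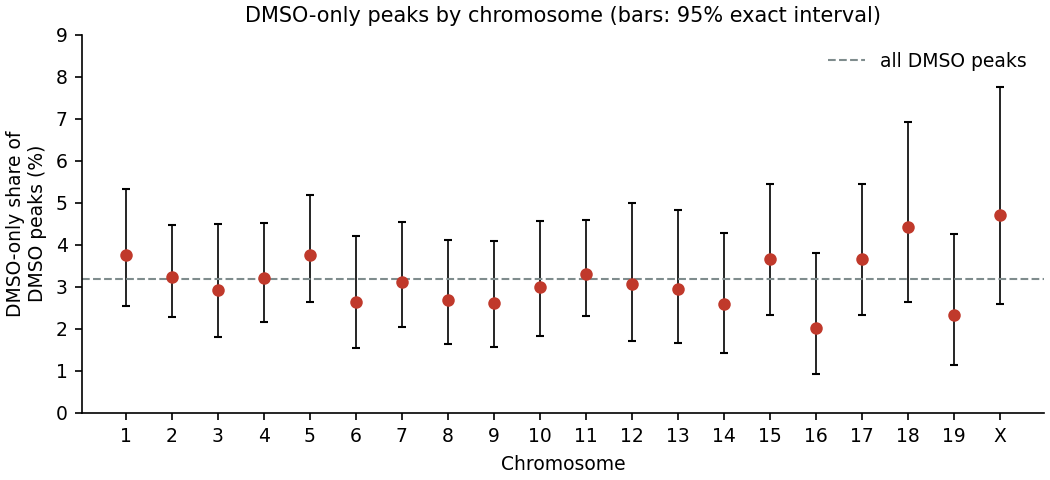
DMSO-only peaks as a share of the DMSO peaks of each chromosome (%, points) with exact 95% intervals for counting error, and the share over all DMSO peaks (3.18%, dashed line). Every interval crosses the dashed line, and the points run from 2.03% on chromosome 16 to 4.7% on X.

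RNA was measured in 3 libraries of Cdk1as/as ES cells kept on feeders, a culture separate from the ChIP cells, as FPKM per gene. Dot1l was at 14.5, 13.7 and 12.9 FPKM and Cdk1 at 292, 233 and 305 FPKM, so both enzymes were expressed in all 3 libraries. The 8 ES cell markers had means of 55.2 (Zfp42) to 1298 FPKM (Dppa5a), and Pou5f1, the core pluripotency factor, averaged 929 ± 32.1 FPKM (SD, n = 3). The 8 fibroblast markers had means of 1.34 (Postn) to 121 FPKM (Tagln), with a median of 7.44 FPKM against 182 FPKM for the ES cell markers. In such bulk libraries fewer cells of a type and less RNA per cell cannot be told apart. Genes were not assigned to the DMSO-only peaks, because the peak positions and the gene positions were taken to be on different genome builds.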

How the data were processed

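The DMSO-only peaks, and the lists and comparisons used for them, were chosen with earlier results of these data known. Each deposited peak list comes from 1 ChIP library and holds positions and the authors' score of every peak. In the H3K79me2 lists the peak names carry the matching input, per the file contents. The submitters' processing notes name bcl2fastq 2.18, Bowtie, Bowtie2 2.2.9, MACS 1.4.2, MACS2 2.1.1, STAR 2.5.4a, Cuffdiff and Cufflinks 2.2.1 without roles, and the builds mm9 and GRCm38. The deposited expression table gives the authors' FPKM per gene on GRCm38 loci. Read depth is unknown for all libraries.

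The build of the peak lists was inferred from positions and from the 2 builds that the notes name. On 19 chromosomes with listed genes, the share of DMSO peaks holding a GRCm38 gene start was highest at no shift on 0 chromosomes, with shifts of up to 2500 kb tried. The same count was 0 for the inhibitor list and 2 for the Thio-ChIP list, chromosomes 8 (5.96%) and 16 (64.7%), the last being one where the DMSO list was highest at a shift of -1 kb. In each list peaks ended beyond the last GRCm38 gene on 6 chromosomes. A peak past the last gene can still lie within a GRCm38 chromosome, so this count cannot tell the builds apart. Moving Thio-ChIP peaks by 5 kb left 9.99% of DMSO peaks overlapped, against 21.5% unmoved. The 3 lists were taken as mm9, the other build in the notes, and coordinates (1-based) are given on it. Positions were not checked against mm9 genes. Positions were not converted, so the planned analyses of gene bodies, gene lists and genes changed in Dot1l knockout cells were not run.

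Overlap meant at least 1 bp (Python 3.11.15, numpy 2.4.6, pandas 2.3.3), tested on simulated intervals. Shares have exact (Clopper-Pearson) 95% intervals. Classes by width, score and gap were set after the values were seen. Peaks were named by a rule: the 10 highest scores, the 5 widest, and the 10 highest scores with a Thio-ChIP peak. Alternatives varied the overlap that counts as shared, the score threshold of each list and the Thio-ChIP overlap.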

Additional observations from a re-analysis of the deposited data

How the results depend on the processing

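The number of DMSO-only peaks depended on the rule. In place of 427 it was 738 when a peak counted as shared only with 50% of its width under inhibitor peaks, 267 and 99 when an inhibitor peak within 1 or 5 kb also counted as shared, 75 among DMSO peaks with a score above the median of 24, and 1049 against inhibitor peaks with a score above their median of 19. The number with a Thio-ChIP peak, 41 as reported, was 87 (11.8%), 35 (13.1%), 18 (18.2%), 16 (21.3%) and 129 (12.3%) under these 5 settings, against 22%, 21.6%, 21.5%, 36.2% and 22.2% of the other DMSO peaks. It was 73 with a Thio-ChIP peak within 1 kb, 28 with the Thio-ChIP peaks above their median score of 154, and, in settings chosen after seeing the data, 39 among peaks under 2 kb and 23 with the centre of the DMSO peak inside the Thio-ChIP peak. The share in DMSO-only peaks was below that in the other DMSO peaks in these settings, except among peaks under 2 kb, where it was about the same (9.73% against 9.79%), and by the centre, where it was higher (5.39% against 1.83%). Only the setting under 2 kb limited the width of the peaks. The other settings set mostly narrow DMSO-only peaks beside DMSO peaks of all widths. They therefore do not show a lower share at equal width. The shares by the centre were not compared within width classes, though the 2 groups differ in width. The median width of DMSO-only peaks stayed between 0.691 and 0.877 kb. No paired analysis was possible because each ChIP list comes from 1 library, and no test was run on replicated groups. Alternatives planned for genes were not run, since genes could not be placed on the build of the peaks.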
